A study of Homo sapiens with 12 samples.

Results

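The response of granulocytic HL-60/S4 cells to tumor necrosis factor (TNF-α) was taken from 6 of the 12 libraries of the series, 3 treated with TNF-α and 3 treated with vehicle. Every gene that passed an expression filter on these 6 libraries was included, which left 16944 of the 58288 genes in the count table. HL-60/S4 is a subline of the HL-60 acute promyelocytic leukemia line. Both groups had been exposed for 4 days to ATRA (all-trans retinoic acid, 1 µM), which drives the line towards granulocytes, were at passage 8 and were held in medium with added calcium. One group then received TNF-α at 16 ng/ml and the other water as vehicle, and RNA was taken after 2 h. All flasks came from a single seed lot, so the p-values measure the spread between flasks of one experiment. The undifferentiated promyelocytes of the series were treated in an experiment of their own, with their own vehicle libraries.

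TNF-α is a cytokine of early inflammation. It binds 2 receptors, TNFR1 (TNFRSF1A) and TNFR2 (TNFRSF1B), and assembles a complex of adaptors, ubiquitin ligases and kinases that frees NF-kB transcription factors from their IkB inhibitors and activates MAP kinases. NF-kB then switches on cytokines, adhesion molecules and survival genes together with its own inhibitors, and these end the signal. In neutrophils TNF-α is known as a priming agent that readies the cells for migration, for degranulation and for the release of reactive oxygen.

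The 6 libraries held 22829189 to 29318607 read pairs assigned to genes. Genes of the mitochondrial chromosome took 5.67 to 6.97% of these. The first principal component separated the TNF-α from the vehicle libraries and held 90.7% of the variance. CYBB, ITGAM, CD38 and NCF1, which mark the granulocytic form, were abundant in every library. FPR1 (147 to 223 counts) and CYP26A1 (16 to 33 counts), markers of the same form, were scarcer. ELANE, which encodes the neutrophil elastase of promyelocytes, had at most 3 counts in any of the 6. The other promyelocytic markers were present. MPO remained abundant, and counts were 4097 to 5808 for PRTN3, 774 to 3598 for MYB, 371 to 583 for CTSG and 305 to 450 for AZU1. The macrophage genes CD163, MRC1, MARCO, MSR1, C1QA, C1QB and C1QC had at most 4 counts in any library, and the summed level of the 19 macrophage markers was 207 to 217 CPM (read counts scaled to the effective size of each library) with vehicle and 158 to 187 CPM with TNF-α, mostly from CSF1R, VSIG4 and MERTK. Of the 7 macrophage markers that could be tested, 1 was higher and 4 were lower, with a median log2 fold change of -0.29 (-0.18 without TNF-α replicate 3), and their part in the results below was not tested. The 10 erythroid markers summed to less than 1 CPM in each library and none could be tested. Of the lymphoid markers 1 of 6 was higher and 0 were lower, and of the epithelial and stromal markers 0 of 3 were higher and 2 were lower (0 without TNF-α replicate 2 or 3 or vehicle replicate 2, and 1 without vehicle replicate 3). In bulk RNA, fewer cells that express a gene and less RNA per cell cannot be told apart.

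TNF-α changed the RNA of a large share of the measured genes within 2 h, mostly by small amounts, and the large changes were mainly increases. At an adjusted p under 0.05, 4135 genes (24.4% of those tested) rose and 4209 (24.8%) fell, 49.2% in all. Of these, 2348 increases and 2623 decreases were smaller than 1.5-fold. At least 2-fold changes were seen for 1029 genes that rose (6.07%) and 717 that fell (4.23%). Among changes of at least 4-fold, 365 were increases and 81 were decreases, and among changes of at least 8-fold, 172 were increases and 13 were decreases. The median log2 fold change was 0.50 over the genes that rose, -0.45 over those that fell and -0.0047 over all genes. Among protein-coding genes 28.0% rose and 28.9% fell, and the counts of the gene lists below are to be read beside these shares. A minimum fold change of 1.5 built into the test left 1075 genes increased and 701 decreased. Correction of each library for gene length and GC content turned the balance towards decreases, with 3812 genes up and 4786 down. The plot of change against expression level shows large increases among both scarce and abundant genes, while the most abundant genes that fell did so by small amounts.

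**Figure D1:**
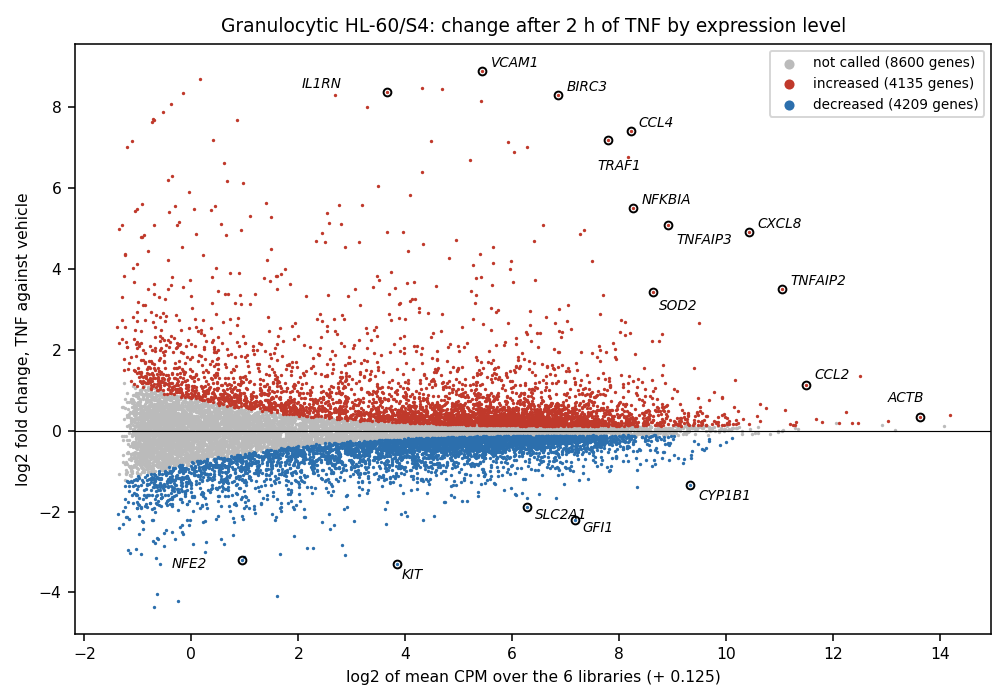
Each point is one of the 16944 genes, with the log2 of its mean CPM over the 6 libraries on the x axis (a small constant added) and its log2 fold change (TNF-α against vehicle) on the y axis. Genes that rose (4135, red) reach log2 fold changes above 8, as VCAM1, IL1RN and BIRC3 do, while among the labelled genes that fell (blue) KIT and NFE2 lie lowest, near -3.

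The largest increases came from near silence. VCAM1, an adhesion molecule best known from activated endothelium, had 0.231, 0.133 and 0.169 CPM in the vehicle libraries and 88.2, 85.8 and 85.7 CPM in the TNF-α libraries (log2 fold change 8.91 ± 0.13, adjusted p = 8.45e-37). EBI3, a subunit shared by the cytokines IL-27 and IL-35, went from 0.115, 0.133 and 0.0675 CPM to 38.9, 37.1 and 41.7 CPM (log2 fold change 8.48 ± 0.17, adjusted p = 4.81e-32). IL1RN, the natural antagonist of the IL-1 receptor, went from 0.0385, 0 and 0.169 CPM to 26.5, 24.8 and 23.3 CPM (log2 fold change 8.38 ± 0.22, adjusted p = 5.10e-28). In each of the 3 genes every TNF-α library exceeded every vehicle library by more than 100-fold. SLC2A6, a hexose transporter, reached 50.8 ± 5.64 CPM from 0.134 ± 0.116 CPM (SD, n = 3 and 3, as for all values given as mean ± SD), a log2 fold change of 8.45 ± 0.18. IL12B, the p40 subunit of IL-12 and IL-23, rose by 8.16 ± 0.13, BIRC3 by 8.31 ± 0.094, CCL4 by 7.42 ± 0.075, TRAF1 by 7.2 ± 0.087, IL1A by 7.13 ± 0.10 and CCL3 by 6.89 ± 0.094 on the log2 scale. The 12 steepest increases of protein-coding genes, where only those averaging at least 1 on the log2 CPM scale were ranked, also held CFAP46 (log2 fold change 7.16 ± 0.15), a gene of motile cilia, and CCL4L2 (7.03 ± 0.090), whose sequence is so close to CCL4 that reads may have been shared between them.

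In absolute output the order was different. TNFAIP2, an exocyst-related protein named for its induction by TNF-α, gained most, from 342, 335 and 350.0 CPM to 4017, 3841 and 3804 CPM (log2 fold change 3.5 ± 0.058, adjusted p = 1.30e-34). ACTB, which encodes beta-actin, followed, from 11076 ± 726 CPM to 14128 ± 1071 CPM, although its log2 fold change was only 0.35 ± 0.063. CXCL8, CCL2 and FTL were the other 3 of the top 5. The largest losses in CPM were of CYP1B1, a cytochrome P450 of retinoid and estrogen metabolism, from 859, 962 and 942 CPM to 376, 362 and 345 CPM (log2 fold change -1.35 ± 0.053, adjusted p = 2.03e-22), followed by HNRNPLL, a splicing regulator (log2 fold change -0.80 ± 0.056), LBR, the lamin B receptor of the inner nuclear membrane (-0.67 ± 0.053), SESN3, a stress-responsive inhibitor of growth signaling (-1.4 ± 0.049), and RAB31, a GTPase of endosomal traffic (-0.71 ± 0.049). None of these losses reached 3-fold, and the TNF-α and vehicle libraries did not overlap for any of the 10 genes. Across all genes tested, the groups were separated in this way with TNF-α higher in 27.3% of cases and with TNF-α lower in 27.9%.

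The negative feedback of the NF-kB pathway rose almost as a block. Of 16 inhibitors and feedback genes tested, 14 rose and 0 fell, with a median log2 fold change of 1.70. NFKBIA, which encodes IkBα, stood at 13.1, 13.8 and 12.6 CPM with vehicle and at 628, 598 and 574 CPM with TNF-α (log2 fold change 5.51 ± 0.064, adjusted p = 3.37e-39). TNFAIP3, which encodes the ubiquitin-editing enzyme A20, went from 25.3, 28.2 and 29.9 CPM to 976, 938 and 909 CPM (log2 fold change 5.08 ± 0.064, adjusted p = 3.56e-38). Both genes thus had more than 30 times as much RNA after 2 h, with replicate values within 10% of their mean. BCL3, an atypical IkB of the nucleus, rose by 5.09 ± 0.073 and TRAF1 by 7.2 ± 0.087. The 2 members without a call were OTULIN (log2 fold change 0.053) and NFKBIZ (0.31).

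The genes for the NF-kB subunits differed in the size of their response. NFKB2, the p100 precursor of the alternative pathway, went from 9.82, 10.1 and 10.7 CPM to 309.9, 293 and 292 CPM (log2 fold change 4.87 ± 0.062, adjusted p = 4.22e-38), and its partner RELB from 6.24, 7.84 and 7.52 CPM to 119, 116 and 115 CPM (log2 fold change 4.01 ± 0.070, adjusted p = 1.07e-33). NFKB1 rose by 2.02 ± 0.052 and IKBKE, an IKK-related kinase, by 1.83 ± 0.049. RELA, the transactivating subunit of the canonical pathway, had a log2 fold change of 0.22 ± 0.054, called here but not with length and GC content corrected (0.092). Over the whole list of 16 subunits and kinases 13 rose and 1 fell (TAB1), with a median of 0.32, and 5 rose by significantly more than 1.5-fold. Both receptors fell. TNFRSF1A stood at 209, 202 and 212 CPM with vehicle and 168, 149 and 153 CPM with TNF-α (log2 fold change -0.41 ± 0.050, adjusted p = 1.26e-08), and TNFRSF1B at 78.3, 79.9 and 84.7 CPM and 66.3, 63.6 and 62.4 CPM (log2 fold change -0.34 ± 0.053, adjusted p = 1.60e-06). For both, the highest TNF-α value was under the lowest vehicle value, and neither exceeded 1.5-fold in the test with that minimum. In the receptor complex 9 of 16 genes rose. The steepest were the ubiquitin ligases BIRC3 and TRAF3 (2.33 ± 0.055), the sheddase ADAM17 (1.39 ± 0.050) and CFLAR, the brake on caspase-8 (1.26 ± 0.050).

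Promoters were read to show the sequence in front of these genes. A RefSeq window from 250 bases before to 50 bases after the start (GRCh38.p14) was found for 6793 of 11680 tested protein-coding genes. The 10-letter NF-kB consensus was searched on both strands, and capitals mark each match in the stretches below, which lie before the start site and are written 5′ to 3′ on the strand of the gene. The first 5 are the named genes with the steepest increases among those with a match wholly before the start, at chr1:100719635-100719741 (plus strand) for VCAM1, chr11:102317240-102317359 (plus) for BIRC3, chr14:35404756-35404875 (minus) for NFKBIA, chr6:137867147-137867258 (plus) for TNFAIP3 and chr2:227813718-227813837 (plus) for CCL20.
VCAM1: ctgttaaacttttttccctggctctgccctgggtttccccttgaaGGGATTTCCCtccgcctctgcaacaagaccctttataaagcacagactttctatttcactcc
BIRC3: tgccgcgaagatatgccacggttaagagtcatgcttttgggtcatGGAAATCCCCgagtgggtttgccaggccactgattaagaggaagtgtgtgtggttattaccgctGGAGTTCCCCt
NFKBIA: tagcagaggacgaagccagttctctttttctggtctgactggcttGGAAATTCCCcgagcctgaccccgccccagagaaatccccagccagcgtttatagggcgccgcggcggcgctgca
TNFAIP3: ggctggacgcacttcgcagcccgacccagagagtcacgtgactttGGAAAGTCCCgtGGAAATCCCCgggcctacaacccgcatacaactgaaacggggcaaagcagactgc
CCL20: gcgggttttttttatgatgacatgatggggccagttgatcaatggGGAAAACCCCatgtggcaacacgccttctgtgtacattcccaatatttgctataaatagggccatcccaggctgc
The first match began 62 bases before the start in VCAM1, 199 in BIRC3, 81 in NFKBIA, 67 in TNFAIP3 and 79 in CCL20. Across the windows the share with a match followed the size of the increase. It was 6.42% over all 6793 windows, 27% for genes that rose at least 8-fold (17 of 63), 16.4% for those that rose 4-fold to 8-fold, 10.6% for those that rose 2-fold to 4-fold and 8.59% for those that rose less. Uncalled genes held a match in 5.15% of windows, genes that fell less than 2-fold in 5.06% and genes that fell at least 2-fold in 6.12%. These shares are descriptions without a test, and a match is a stretch of letters, not a shown binding site. The AP-1 site TGANTCA was present in 4.08% of all windows, in 9.52% of those of genes that rose at least 8-fold and in 8.16% of those of genes that fell at least 2-fold.

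Chemokines, the attractants of leukocytes, were among the most strongly increased groups. Of 14 tested 12 rose and 0 fell, with a median log2 fold change of 3.46. CXCL8, the main attractant of neutrophils, went from 89.7, 85.6 and 90.5 CPM to 2659.8, 2788 and 2588 CPM (log2 fold change 4.92 ± 0.062, adjusted p = 2.94e-38). CCL4, which draws monocytes and T cells, went from 3.27, 3.24 and 3.74 CPM to 605, 599 and 563 CPM (log2 fold change 7.42 ± 0.075, adjusted p = 1.06e-40). CCL2, the monocyte attractant, was already abundant with vehicle at 1821, 1698 and 1916 CPM and reached 4098, 3907 and 3821 CPM (log2 fold change 1.12 ± 0.056, adjusted p = 3.56e-19). Scaled by gene length, as TPM, CCL2 remained the most abundant of these after TNF-α at 5492 TPM, ahead of CXCL8 at 3259 TPM, CCL4 at 802 TPM and CCL3 at 239.6 TPM. CXCL10, which attracts activated T cells, had no count in any vehicle library and 1.25, 1.47 and 1.94 CPM with TNF-α, at least 14.7-fold higher than a floor of 3 counts per library. The 2 uncalled chemokines were CXCL16 (log2 fold change -0.18) and CCL23 (0.36).

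Cytokines and growth factors rose in 15 of 22 cases and fell in 3, with a median of 1.62. IL1B, the secreted IL-1 of myeloid cells, went from 9.47, 10.2 and 10.5 CPM to 338, 316 and 284 CPM (log2 fold change 4.96 ± 0.070, adjusted p = 8.45e-37). TNF itself went from 14.7, 14.2 and 14.6 CPM to 93.2, 82.6 and 70.6 CPM (log2 fold change 2.5 ± 0.076, adjusted p = 4.18e-26), without overlap between the groups. IL1RN rose alongside both IL-1 genes, so that the agonists IL1A and IL1B and their antagonist were all higher in each TNF-α library. The 3 members that fell were IL18 (-0.63), HBEGF (-0.54) and TNFSF14 (-0.44). IL18 is a relative of IL-1, HBEGF a growth factor of the EGF family and TNFSF14 a relative of TNF.

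**Figure D2:**
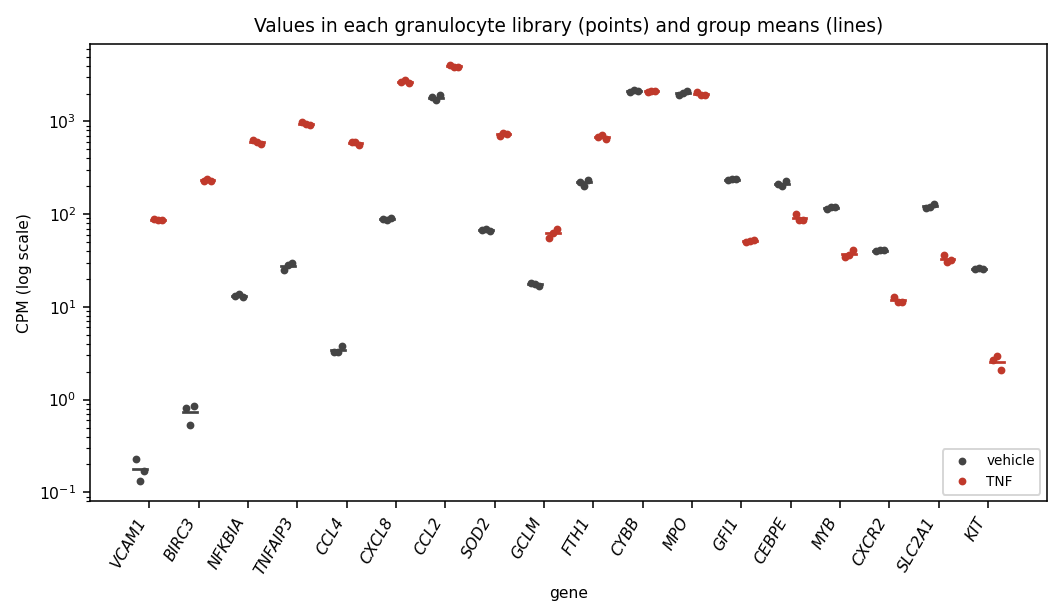
The CPM (log axis) of 18 genes in each of the 3 vehicle (grey) and 3 TNF-α (red) granulocyte libraries, with lines at the group means. The libraries of a group lie close together, VCAM1 and BIRC3 with vehicle being the widest, and the groups overlap only for CYBB and MPO.

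Adhesion molecules did not move as one group. Of 23 tested 9 rose (39.1%) and 11 fell (47.8%), beside 28.0% and 28.9% of all protein-coding genes tested (median -0.019). ICAM1, the ligand of the beta-2 integrins, went from 132, 141 and 151 CPM to 816, 726 and 701 CPM (log2 fold change 2.41 ± 0.059, adjusted p = 3.59e-29), and CD44, the hyaluronan receptor, from 33.6, 34.3 and 35.3 CPM to 231, 222 and 221 CPM (log2 fold change 2.71 ± 0.053, adjusted p = 3.84e-32). SELPLG, the selectin ligand used for rolling, went the other way, from 24.9, 25.7 and 29.0 CPM to 5.81, 7.47 and 4.96 CPM (log2 fold change -2.11 ± 0.10, adjusted p = 1.50e-19). ICAM5 (-2.20 ± 0.22) and the integrin gene ITGA4 (-0.88 ± 0.049) also fell, and ITGB2, the beta-2 chain and the most abundant of the list, rose by 0.38 ± 0.054. Of 23 genes listed for proteases, coagulation and matrix 11 passed the filter, and these were called higher (median 2.09). F3, tissue factor, which starts coagulation, went from 4.23, 5.54 and 6.34 CPM to 80.6, 73.9 and 68.6 CPM (log2 fold change 3.78 ± 0.088, adjusted p = 8.31e-30). MMP9, the gelatinase of neutrophil tertiary granules, went from 1.73, 1.4 and 1.69 CPM to 22.4, 16.7 and 18.2 CPM (log2 fold change 3.57 ± 0.14, adjusted p = 9.76e-23). TNFAIP6, a hyaluronan-binding protein, had 2, 3 and 1 counts with vehicle and 17.6, 19.9 and 20.2 CPM with TNF-α, at least 182-fold higher. TNFAIP6 here, CXCL10 among chemokines, and LAMP3 and STRA6 described below passed the filter through their TNF-α libraries alone. So did VCAM1, EBI3, IL1RN and SLC2A6 among the largest increases. IL12B, CFAP46, CD274, IRF8 and the noncoding gene MIR3142HG described below would not have passed on their vehicle libraries alone. For such genes, presence in a count of increases was set by the filter.

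Genes of cell survival and of cell death rose together. Of 29 tested 21 rose and 2 fell, BCL2 (-0.34) and APAF1 (-0.23), with a median of 0.60. BIRC3, the cellular inhibitor of apoptosis 2, went from 0.808, 0.534 and 0.843 CPM to 225, 238 and 229.7 CPM (log2 fold change 8.31 ± 0.094, adjusted p = 2.28e-39). On the protective side CFLAR, MCL1 (0.67 ± 0.049) and BCL2A1 (1.21 ± 0.050) rose. On the lethal side the death receptor gene FAS rose by 2.24 ± 0.13, the death ligand TNFSF10 (TRAIL) by 2.08 ± 0.073, and the BH3-only genes BBC3 and BID by 2.0 ± 0.31 and 1.56 ± 0.053. CASP8, the initiator caspase of the death receptors, had a log2 fold change of 0.016 ± 0.048 and was not called.

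Immediate-early genes, transcription factors and others that answer a stimulus without new protein, rose in 20 of 28 cases (median 1.04). Of these genes 1 fell, EGR1 (-0.62 ± 0.078), or 2 without TNF-α replicate 1 or vehicle replicate 2. BTG2, an antiproliferative gene, went from 194, 192 and 200.1 CPM to 1351, 1249 and 1139 CPM (log2 fold change 2.67 ± 0.058, adjusted p = 8.73e-31), and IER3, a survival gene, from 1.5, 1.57 and 1.59 CPM to 40.2, 43.1 and 32.4 CPM (log2 fold change 4.63 ± 0.12, adjusted p = 2.58e-28). EGR2 rose by 3.17 ± 0.10, in the direction opposite to EGR1. The AP-1 genes JUN, JUNB and JUND rose (2.44, 1.95 and 1.23), while FOS (-0.039 ± 0.089) was not called. All 10 measurable MAP kinase phosphatases rose (median 1.14), led by DUSP2 (3.69 ± 0.11). In the JAK-STAT list 11 of 21 rose and 4 fell (median 0.17), led by the kinase PIM3 (3.0 ± 0.061) and by STAT5A, from 11.5, 11.9 and 12.4 CPM to 78.7, 72.3 and 73.7 CPM (log2 fold change 2.65 ± 0.066, adjusted p = 6.75e-29).

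Transcription factors of myeloid development moved in both directions. Of 22 myeloid factors 8 rose (36.4%) and 10 fell (45.5%), beside 28.0% and 28.9% of all protein-coding genes tested (median -0.085). GFI1, a repressor needed for neutrophil development, fell in every library, from 232, 239 and 238 CPM to 50.0, 51.2 and 52.4 CPM (log2 fold change -2.21 ± 0.051, adjusted p = 6.97e-30). CEBPE, which drives the late granule genes, fell from 211, 199 and 226 CPM to 100.2, 86.5 and 87.6 CPM (log2 fold change -1.22 ± 0.056, adjusted p = 2.60e-20). MYB, a factor of immature progenitors, fell from 113, 120.1 and 119 CPM to 34.6, 36.1 and 41.4 CPM (log2 fold change -1.65 ± 0.059, adjusted p = 8.91e-24), so that a gene of immaturity and genes of granulocyte maturation fell side by side. NFE2, an erythroid and megakaryocyte factor also present in neutrophils, went from 3.31, 3.24 and 3.14 CPM to 0.581, 0.214 and 0.271 CPM (log2 fold change -3.20 ± 0.30, adjusted p = 1.78e-11). With 13, 6 and 6 TNF-α counts, NFE2 would not have passed the filter on its TNF-α libraries alone. Its presence in a count of decreases was thus set by the filter. IRF5, a factor of inflammatory macrophages, had a log2 fold change of -2.13 ± 0.17. IRF8, which favors monocytes and dendritic cells over granulocytes, rose from 0.192, 0.434 and 0.371 CPM to 11.4, 9.72 and 9.52 CPM (log2 fold change 4.90 ± 0.21, adjusted p = 3.08e-21). SPI1, the master myeloid factor PU.1, rose from 219, 204 and 232 CPM to 459.8, 399 and 401 CPM (log2 fold change 0.94 ± 0.056, adjusted p = 4.44e-17). KIT, the stem cell factor receptor, showed the steepest fall of the protein-coding genes ranked at that level of expression, from 25.7, 26.1 and 25.4 CPM to 2.68, 2.97 and 2.08 CPM (log2 fold change -3.30 ± 0.11, adjusted p = 6.97e-25), while its ligand KITLG rose from 6.04, 5.51 and 5.83 CPM to 14.5, 16.7 and 18.1 CPM (log2 fold change 1.5 ± 0.10, adjusted p = 5.07e-15). The other 11 of the 12 steepest falls at that level were MPPED1, FFAR4 (a fatty acid receptor), CYSLTR2 (a leukotriene receptor), MARCHF1 (a ubiquitin ligase for MHC class II), PRICKLE1, COL9A3, SRGAP3, PLCH1, TRIB2, GFI1 and ICAM5, with log2 fold changes between -3.08 and -2.20.

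Granule lists differed. Of 13 azurophil granule genes 2 rose, 1 fell and 10 were not called (median 0.0055), shares below the 28.0% and 28.9% of all protein-coding genes tested. MPO, the myeloperoxidase of these granules, stood at 1934, 2025 and 2129.6 CPM with vehicle and at 2075, 1920.3 and 1931 CPM with TNF-α, and the groups overlapped (log2 fold change -0.039 ± 0.054, adjusted p = 0.579). With length and GC content corrected it was called lower (log2 fold change -0.17). CYBB, the catalytic subunit of the NADPH oxidase, stood at 2077, 2165 and 2109 CPM and 2092, 2146 and 2111 CPM (log2 fold change -0.00061 ± 0.052, adjusted p = 0.994), a difference smaller than the spread between flasks. In the oxidase list 5 of 10 rose and 1 fell (NCF4). NCF1, the p47phox organizer, rose by 0.67 ± 0.057, with reads that pseudogene copies could share, and no oxidase gene passed the test with a minimum of 1.5-fold. In the specific and gelatinase granule list only 7 of 17 genes were measurable. Of these 4 rose, each by at least 2-fold (MMP9, QPCT, CHI3L1 and OLFM4), and 1 fell (CTSS, -0.42 ± 0.048), with a median of 1.22, and 2 fell without TNF-α replicate 1. CTSS was by far the most abundant, and the summed level of the list was 201 to 208 CPM with vehicle and 177 to 189 CPM with TNF-α.

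The receptors through which neutrophils sense their surroundings moved in both directions, 12 up (42.9%) and 11 down (39.3%) of 28 (median 0.072). Of all protein-coding genes tested, 28.0% rose and 28.9% fell. CXCR2, the receptor for CXCL8 and related chemokines, fell from 39.9, 40.6 and 40.7 CPM to 12.8, 11.4 and 11.3 CPM (log2 fold change -1.77 ± 0.073, adjusted p = 7.69e-22), and CCR2, the receptor for CCL2, from 3.46 ± 0.486 CPM to 0.849 ± 0.121 CPM (log2 fold change -2.03 ± 0.24, adjusted p = 3.93e-09). Each thus fell while a ligand of it rose. The IgA receptor FCAR rose by 2.77 ± 0.070 and the platelet-activating factor receptor PTAFR from 1.92, 1.84 and 2.80 CPM to 25.2, 25.5 and 25.5 CPM (log2 fold change 3.53 ± 0.12, adjusted p = 5.50e-25). Of the Toll-like receptors, TLR2, which senses bacterial lipoproteins, had a log2 fold change of 1.56 ± 0.070, and TLR4, which senses endotoxin, of -0.76 ± 0.052. Among regulators of G-protein signaling 8 rose and 8 fell of 22 (36.4% each, median -0.015). RGS1 was up by 2.62 ± 0.059 and the cyclic AMP phosphodiesterase PDE4B up from 35.2, 39.2 and 35.4 CPM to 376, 377 and 383 CPM (log2 fold change 3.37 ± 0.055, adjusted p = 1.24e-34). Of 13 genes for lipid mediators 6 rose (46.2%) and 3 fell (23.1%), with a median of 0.029. PTGES, the last enzyme of prostaglandin E2 synthesis, went from 6.31, 4.71 and 6.10 CPM to 80.6, 79.7 and 78.1 CPM (log2 fold change 3.80 ± 0.078, adjusted p = 1.76e-31), and the prostaglandin E2 receptor gene PTGER4 rose by 2.42 ± 0.12.

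Many genes through which a cell addresses T cells rose. Of 13 costimulatory and dendritic genes 8 rose and 3 fell (median 2.48, which was 1.36 without TNF-α replicate 2 and 4.06 without vehicle replicate 3). CD40 went from 6.70, 5.47 and 6.95 CPM to 165, 159 and 168 CPM (log2 fold change 4.69 ± 0.071, adjusted p = 9.88e-36) and ICOSLG, the ligand of the T cell costimulator ICOS, from 6.62, 5.77 and 7.05 CPM to 122, 112 and 123 CPM (log2 fold change 4.20 ± 0.073, adjusted p = 6.69e-34). CD83, a marker of mature dendritic cells, rose by 4.14 ± 0.077 and the inhibitory ligand gene CD274 (PD-L1) by 4.56 ± 0.19. LAMP3, another gene of mature dendritic cells, had 0, 0 and 1 counts with vehicle and 3.53, 3.5 and 3.07 CPM with TNF-α, at least 31.9-fold higher. CD86 (-1.20 ± 0.086) and CD1D, from 172, 177 and 166 CPM to 53.3, 54.8 and 55.6 CPM (log2 fold change -1.65 ± 0.051, adjusted p = 1.13e-25), fell. In MHC class I presentation 10 of 19 genes rose and 4 fell (median 0.15), and the peptide transporter TAP1 was the one that passed the test with a minimum of 1.5-fold (1.26 ± 0.056).

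Interferon-stimulated genes did not rise as a class. Of 41 tested 11 rose (26.8%) and 13 fell (31.7%), shares near the 28.0% and 28.9% of all protein-coding genes tested (median -0.13). The guanylate-binding proteins GBP1, GBP2 and GBP4 rose, GBP2 by 3.0 ± 0.068, while TRIM22 (-0.96 ± 0.10), IFIT2 (-0.78 ± 0.12) and OAS1 (-0.66 ± 0.078) fell. Of 16 inflammasome genes 9 fell and 3 rose (median -0.51). NLRP3, the sensor primed by NF-kB, rose from 12.4, 11.6 and 13.4 CPM to 36.0, 36.4 and 36.7 CPM (log2 fold change 1.55 ± 0.073, adjusted p = 6.49e-20). The other sensors NLRP1 (-1.89 ± 0.21) and NAIP (-1.17 ± 0.091) and the NAIP partner NLRC4 (-1.10 ± 0.069) fell, and the caspase gene CASP1 had a log2 fold change of -0.23 ± 0.061.

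Enzymes that detoxify oxidants rose in 17 of 23 cases and fell in 1, the catalase gene CAT (-0.49 ± 0.048), with a median of 0.47. SOD2, the mitochondrial superoxide dismutase and a known NF-kB target, went from 67.3, 68.9 and 66.5 CPM to 699, 749 and 740.0 CPM (log2 fold change 3.43 ± 0.054, adjusted p = 3.75e-35), the largest change of the list. The identifier of the file for this gene was matched to SOD2 by position, at chr6:159669057-159762529 on the minus strand. Several others are known targets of the transcription factor NRF2. GCLM, a subunit of the enzyme that limits glutathione synthesis, went from 18.1, 17.8 and 16.9 CPM to 54.7, 62.5 and 69.7 CPM (log2 fold change 1.83 ± 0.072, adjusted p = 2.20e-22), and NQO1, a quinone reductase, from 13.4, 12.9 and 12.1 CPM to 35, 33.9 and 35.7 CPM (log2 fold change 1.45 ± 0.073, adjusted p = 4.39e-19). FTH1, the ferritin heavy chain, went from 223, 204 and 234 CPM to 688, 706 and 645 CPM (log2 fold change 1.63 ± 0.054, adjusted p = 9.71e-25), and TXNRD1, thioredoxin reductase, from 262, 276 and 259 CPM to 508, 525 and 535 CPM (log2 fold change 0.98 ± 0.049, adjusted p = 3.85e-19). The TNF-α libraries lay above all vehicle libraries for each of these 5 genes. The core of the antioxidant response element, TGACNNNGC on either strand, is shown in capitals in a stretch of the GCLM promoter (chr1:93909431-93909509, minus strand), where the match begins 34 bases before the start.
GCLM: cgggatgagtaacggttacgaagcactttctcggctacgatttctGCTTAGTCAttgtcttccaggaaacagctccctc
These letters are common. They were present in 15.6% of all windows, in 11.1% of those of genes that rose at least 8-fold and in 3 of the 12 windows of the antioxidant list.

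**Figure D3:**
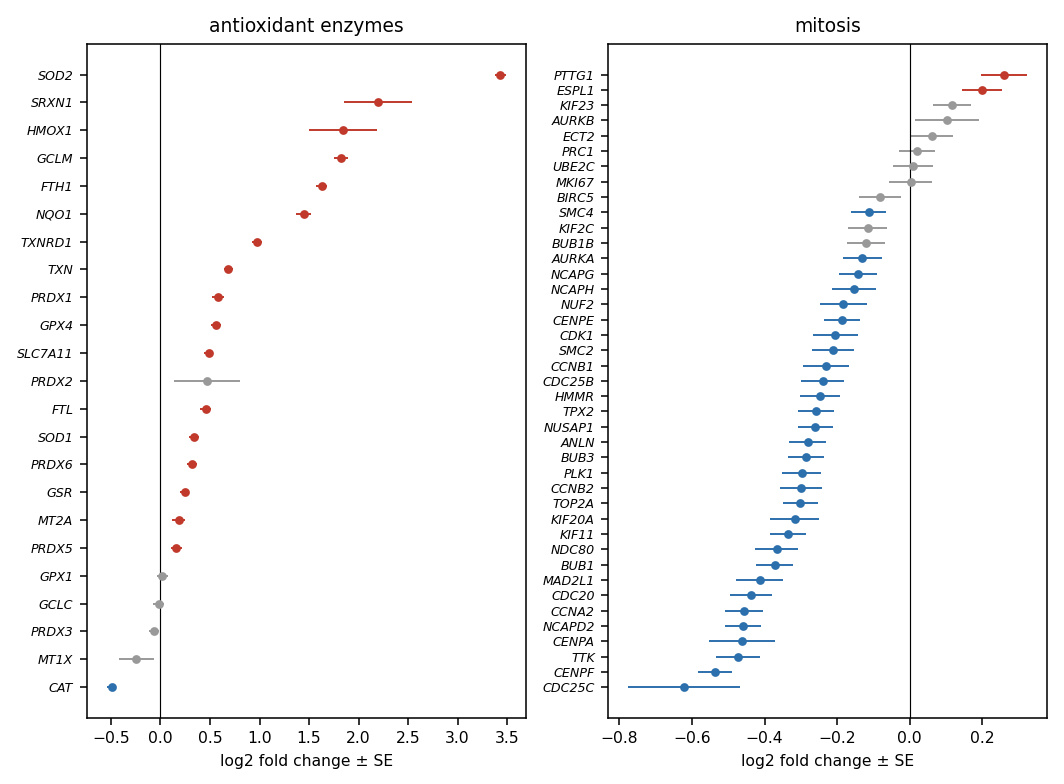
Log2 fold change ± SE (TNF-α against vehicle, 3 libraries each) of every tested member of the antioxidant list (left, 23 genes) and the mitosis list (right, 41 genes), red for increased, blue for decreased and grey for not called. The 2 panels have different x axes: antioxidant genes reach 3.43 (SOD2), whereas the largest change of a mitosis gene is -0.62 (CDC25C).

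Mitosis genes fell slightly and widely. Of 41 tested 30 fell and 2 rose (PTTG1, and ESPL1, whose call was lost with length and GC content corrected), with a median log2 fold change of -0.24. CENPF, a kinetochore protein, went from 259, 264 and 260.3 CPM to 182, 180.3 and 177 CPM (log2 fold change -0.54 ± 0.047, adjusted p = 3.81e-12), and the spindle checkpoint kinase gene TTK from 65.8, 60.4 and 56.9 CPM to 41.4, 45.2 and 45.2 CPM (log2 fold change -0.47 ± 0.060, adjusted p = 2.46e-08). No member passed the test with a minimum of 1.5-fold, while 28 were called lower with length and GC content corrected. DNA replication genes gave 12 down and 5 up of 45 (median -0.025, with 3 up without TNF-α replicate 1 or vehicle replicate 2). The share that fell, 26.7%, was near the 28.9% of all protein-coding genes tested, and the share that rose, 11.1%, was below their 28.0%. In the control of G1 14 of 24 rose and 5 fell (median 0.22). CDKN1A, the cell cycle inhibitor p21, went from 1.15, 1.6 and 1.52 CPM to 23.6, 19.1 and 18.4 CPM (log2 fold change 3.82 ± 0.14, adjusted p = 9.39e-24), and CCND1, cyclin D1, which acts in the opposite sense, from 196, 209 and 218 CPM to 499, 477 and 474 CPM (log2 fold change 1.22 ± 0.051, adjusted p = 1.04e-21).

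In glucose metabolism the largest changes were at transporters. Of 25 genes 9 rose and 9 fell (36% each), beside 28.0% and 28.9% of all protein-coding genes tested (median 0.061). SLC2A1, the widespread transporter GLUT1, fell from 115, 119.5 and 129 CPM to 36.3, 30.9 and 32 CPM (log2 fold change -1.88 ± 0.060, adjusted p = 3.29e-25), while SLC2A6 rose as given above. Per length, SLC2A1 went from 83.8 to 19.4 TPM and SLC2A6 from 0.124 to 39.8 TPM, so that the order of the 2 transporters was exchanged. These TPM were not rescaled as the CPM were. No enzyme of the pathway moved by more than 2-fold.

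Medians of general cell functions moved little. Of all protein-coding genes tested, 28.0% rose and 28.9% fell. Genes of ribosomal proteins (27.3% and 0%), the respiratory chain (26% and 8%) and cholesterol synthesis (26.1% and 26.1%) lay below both shares. By the reported calls, more rose among mitochondrial transcripts (76.9%), heat shock (56.25%), unfolded protein response (39.3%), nucleolar (37.5%) and histone genes (35.7%). Zinc finger genes fell more often (35.5%). Lysosome genes were near both shares (30.8% and 30.8%). Of cytosolic ribosomal protein genes 15 of 55 rose and 0 fell (median 0.078, and 23 rose without vehicle replicate 1), of nucleolar genes 12 rose and 5 fell of 32 (median 0.068), and of nuclear genes for the respiratory chain 13 rose and 4 fell of 50 (median 0.054). Transcripts of the mitochondrial genome rose in 10 of 13 cases (median 0.22), but the count was 2 with DESeq2, 6 with the replicate block, 5 without vehicle replicate 1 and 6 without TNF-α replicate 1 (median 0.10). Their share of the counts in each library overlapped between the groups. Core histone genes showed 20 increases and 4 decreases of 56 (median 0.10), which became 8 and 16 with a median of -0.063 after correction for length and GC content, and 13 and 7 without vehicle replicate 2, so no direction is given for them. Numbered zinc finger genes, mostly repressors, fell in 125 of 352 cases and rose in 48 (median -0.11). Cholesterol synthesis gave 6 up and 6 down of 23 (median 0.078, with 3 down without TNF-α replicate 2), the unfolded protein response 11 and 6 of 28 (median 0.068), heat shock genes 9 and 1 of 16 (median 0.22, with 2 down without TNF-α or vehicle replicate 3) and lysosome genes 8 and 8 of 26 (median -0.034, with 5 down without TNF-α replicate 3). Single genes stood out from these lists. PPP1R15A, which restarts translation after stress, rose by 2.13 ± 0.071 while the chaperone gene HSPA5 moved by -0.49 ± 0.052, and the cathepsin gene CTSH went from 2.58, 2.97 and 4.25 CPM to 32.7, 31.2 and 30.2 CPM (log2 fold change 3.25 ± 0.11, adjusted p = 1.06e-24).

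Both groups carried ATRA, and genes of its pathway moved in both directions. Of 16 retinoid genes 7 rose (43.75%) and 5 fell (31.25%), beside 28.0% and 28.9% of all protein-coding genes tested (median 0.38). The retinoic acid receptor gene RARG rose by 2.78 ± 0.17, while RARA moved by -0.44 ± 0.062. STRA6, the retinol uptake receptor, had 2, 0 and 2 counts with vehicle and 3.44, 3.54 and 3.84 CPM with TNF-α, at least 34.1-fold higher. STRA6, TNFAIP6, LAMP3 and CCM2L (at least 37.0-fold higher) had the most TNF-α counts among protein-coding genes with at most 3 counts in every vehicle library, and 51 genes in all were called increased from such a level. Genes at such a level passed the filter through their TNF-α libraries alone, so the direction of these calls was set by the filter.

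Of 2562 long noncoding genes 14% rose and 20.1% fell, beside 28.0% and 28.9% of 11684 protein-coding genes. MIR3142HG, the host transcript of miR-3142 and miR-146a, a microRNA that dampens NF-kB signaling, went from 0.308, 0.367 and 0.304 CPM to 22, 22.1 and 21.5 CPM (log2 fold change 6.04 ± 0.16, adjusted p = 3.77e-28). MMP2-AS1 rose by 4.92 ± 0.15. LINC02701 fell from 5.54, 5.81 and 4.76 CPM to 0.537, 0.643 and 0.767 CPM (log2 fold change -3.04 ± 0.22, adjusted p = 1.39e-14) and LINC00426 had a log2 fold change of -2.26 ± 0.16. Reads were assigned by strand, so these values do not include reads from genes on the other strand.

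**Figure D4:**
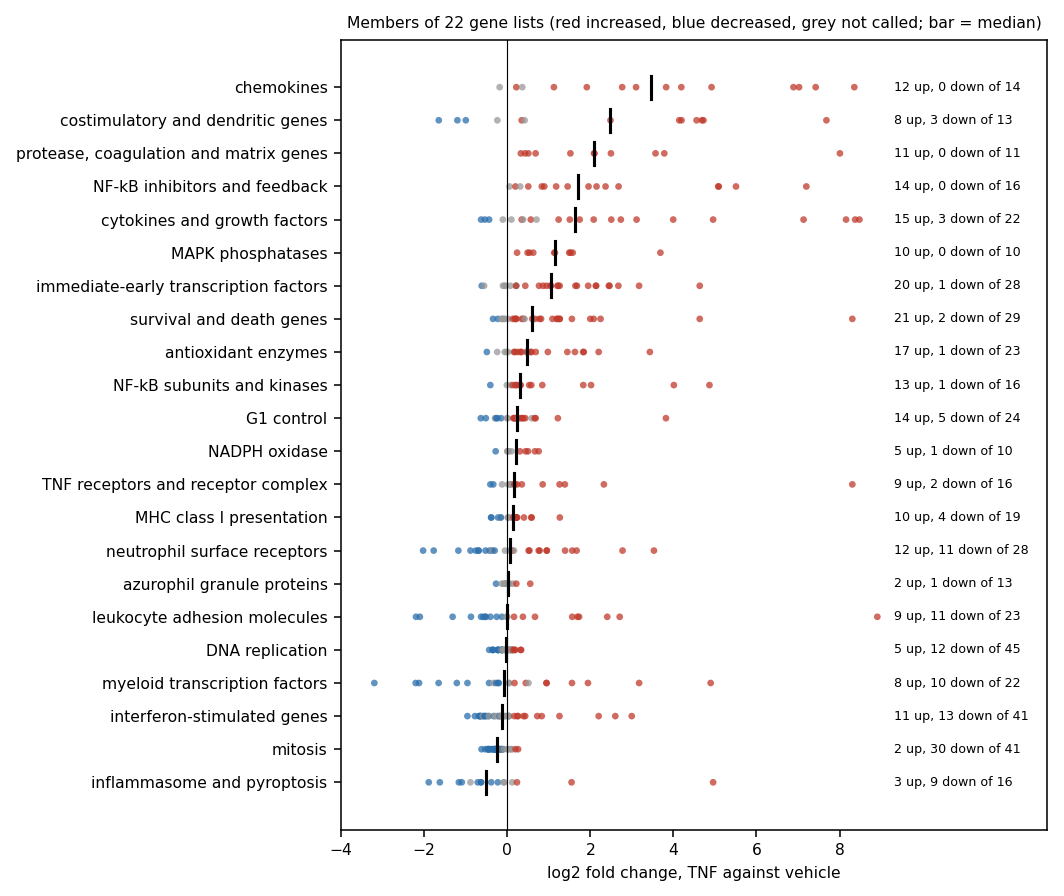
Log2 fold changes (x axis) of the tested members of 22 gene lists (y axis) in granulocytes, red for increased, blue for decreased and grey for not called, with a bar at the median of each list and its counts at the right. Medians run from 3.46 for chemokines to -0.51 for inflammasome genes, and the azurophil granule list clusters around 0.

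The promyelocytes of the series, given the same dose for the same time, serve as the comparison for the granulocyte response. A test of the difference between both responses, over all 12 libraries, was passed by 4351 of 18124 genes (24.0%), with the granulocyte response above that of promyelocytes for 2561 (14.1%) and below it for 1790 (9.88%). With the size factors of DESeq2 the split became 2128 above and 2266 below, so the count on each side depends on the scaling. Among protein-coding genes with at least 10 counts in every library, the 5 with opposite calls and the smallest p were RAB7B, DOCK10, KITLG, JDP2 and DUSP3. Being chosen by that p, they were bound to pass the test of the difference. RAB7B, a GTPase of late endosomes, had a log2 fold change of 3.45 ± 0.078 in granulocytes and -0.24 ± 0.074 in promyelocytes (difference 3.72 ± 0.12, adjusted p = 4.48e-18). KITLG had 1.5 ± 0.10 and -0.59 ± 0.071 (difference 2.13 ± 0.12, adjusted p = 5.35e-13), and DOCK10 went the other way with -0.49 ± 0.048 and 1.02 ± 0.075 (difference -1.46 ± 0.082, adjusted p = 3.55e-13). The genes called in granulocytes alone, chosen by smallest p in the same way, were ITGA6, NAB2, CCDC71L, SLC35F2 and PELO. ITGA6, the alpha-6 integrin chain, went from 46.4, 48.1 and 48.3 CPM to 344, 349.7 and 363 CPM in granulocytes (log2 fold change 2.89 ± 0.052, adjusted p = 2.75e-33), against a log2 fold change of -0.085 ± 0.085 in promyelocytes (difference 3.01 ± 0.089, adjusted p = 8.45e-19). The antioxidant list differed in the same direction. In promyelocytes, where 8.15% of all tested genes rose and 6.65% fell, 2 of 21 measurable members of that list rose and 0 fell, and 13 of the list had a significantly higher response in granulocytes, 2 a lower one. GCLM moved by 0.047 ± 0.074, NQO1 by 0.10 ± 0.11, FTH1 by 0.13 ± 0.076 and TXNRD1 by 0.056 ± 0.055 in promyelocytes, none of them called, and the difference from granulocytes was 1.82 ± 0.11, 1.39 ± 0.14, 1.53 ± 0.10 and 0.96 ± 0.071, in that order, with adjusted p-values of 2.72e-12, 1.26e-08, 1.69e-11 and 7.97e-11. Of the mitosis list 20 of 41 members had a significantly lower response in granulocytes and 0 a higher one. The cell forms were handled in separate experiments, so cell form and experiment cannot be told apart in these differences.

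**Figure D5:**
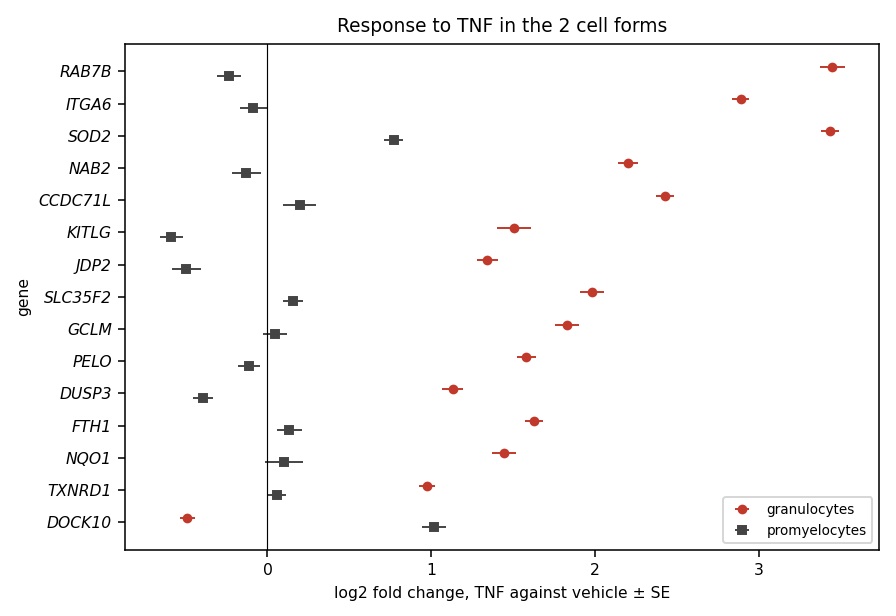
Log2 fold change ± SE (x axis) after TNF-α of 15 genes (y axis) in granulocytes (red circles) and promyelocytes (grey squares), each from 3 TNF-α and 3 vehicle libraries. The response of granulocytes lies to the right for 14 genes, and DOCK10 has the reverse order.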

How the data were processed

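RNA of HL-60/S4 cells was sequenced as stranded paired-end libraries. The authors deposited raw counts of read pairs per gene. Per the submitters' notes and the study's methods, reads were aligned to hg38 with STAR 2.5.3a and counted with featureCounts 1.5.2 on GENCODE v27, using strand and primary alignments, so reads of near-identical genes may be split among copies. Symbols were added to 57532 gene identifiers by identifier and to 23 by position, and 733 kept none.

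Genes were filtered with filterByExpr (minimum count 10, total 15). TNF-α and vehicle groups of 3 granulocyte libraries were compared with the quasi-likelihood test of edgeR 4.0.16 (R 4.3.3) with TMM scaling and Benjamini-Hochberg adjustment at 0.05. Errors of log2 fold changes are standard errors. CPM are counts scaled by the effective library size. TPM are raw counts divided by gene length and scaled to the same sum in every library, without the effective library size. The difference between cell forms was an interaction term over 12 libraries. On simulated counts, 158 of 200 changed genes were recovered, with 6 false calls among 16684 genes. These changes were at most 2-fold and in far fewer genes than were called here. With a simulated GC bias that differed between the groups, the uncorrected test made 5428 false calls among 16657 genes, and the corrected test 15. The reported calls come from the uncorrected test. Libraries held 22829189 to 29318607 counts, and replicates differed by more than counting error (chi-square of 4.08 to 8.08 per gene between pairs). Alternatives were DESeq2 1.42.0, its size factors, no filter, a minimum fold change, all 12 libraries, removal of GC and length trends, a replicate block and leaving out each library. The GC and length alternative for the interaction was added after the data were seen.

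Members and the 42 gene lists were chosen with earlier results of these data known. Named genes were the 12 largest increases and decreases at a mean log2 CPM of at least 1, the 5 largest gains and losses in CPM, up to 5 called members and the most abundant member of each list, noncoding and switched-on genes, and those differing most between cell forms. Another 41 genes fell outside this rule and were chosen after their values were seen (APAF1, BCL2, BCL2A1, BID, CASP1, CASP8, CAT, CCL23, CD86, CEBPE, CXCL10, CXCL16, EGR1, ESPL1, FOS, HBEGF, HSPA5, IFIT2, IL18, ITGA4, JUNB, JUND, MYB, NCF4, NFKBIZ, NLRC4, OAS1, OLFM4, OTULIN, PTTG1, RARA, RELA, SPI1, TAB1, TLR2, TLR4, TNF, TNFRSF1A, TNFRSF1B, TNFSF14, TXNRD1).

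Libraries sharing a replicate number did not deviate together. Promoter sequences are from RefSeq, GRCh38.p14. Promyelocyte libraries served only for the comparison of responses.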

Additional observations from a re-analysis of the deposited data

Results flagged for a closer look

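For 15 genes the response to TNF-α differed between granulocytes and promyelocytes in an edgeR test of the difference over all 12 libraries. That test was passed by 4351 of 18124 genes (24.0%). The genes called in opposite directions or in granulocytes alone were chosen by their small p in it, so their passing was fixed by the choice. The antioxidant genes were chosen with their granulocyte changes known. Each value below is the log2 fold change in granulocytes minus that in promyelocytes. Of genes called in opposite directions, the difference was 3.72 for RAB7B, 2.13 for KITLG, 1.88 for JDP2, an AP-1 repressor, 1.56 for DUSP3 and -1.46 for DOCK10. Of genes called in granulocytes alone, it was 3.01 for ITGA6, 2.37 for NAB2, a co-repressor of EGR factors, 2.27 for CCDC71L, 1.86 for SLC35F2 and 1.73 for PELO, a ribosome rescue factor. Of antioxidant genes, it was 2.70 for SOD2, 1.82 for GCLM, 1.39 for NQO1, 1.53 for FTH1 and 0.96 for TXNRD1. SOD2 was included for its place in the list and rose by 0.77 ± 0.058 in promyelocytes. Each cell form was one experiment of its own, so form and experiment cannot be told apart. Groups of 3 libraries are too small for a test of single outlying libraries.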

How the results depend on the processing

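A minimum fold change of 1.5 in the edgeR test lowered the counts to 1075 genes increased and 701 decreased. Under every other alternative the counts stayed within 1.5 times the reported ones, and 82.8 to 98.9% of the reported calls were kept in the same direction. DESeq2 called 3646 genes up and 3437 down, its size factors gave 4193 and 4114, no expression filter 4073 and 4213, all 12 libraries 3969 and 3705, and removal of GC and length trends 3812 and 4786, with 2 genes called in the opposite direction. Leaving out each library gave 3734 to 4044 increases and 3639 to 4001 decreases. Replicate numbers did not pair the libraries (residual correlations of -0.12, -0.0076 and -0.17), and a replicate block gave 3837 increases and 3884 decreases.

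For the difference between cell forms, leaving out each library gave 2153 to 2740 genes above and 1451 to 1833 below. The split was 2034 and 1315 with the block, 2128 and 2266 with DESeq2 size factors, 1991 and 2518 without a filter, and 2145 and 2236 without GC and length trends.

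Of the 165 named genes, 3 changed sign under an alternative, and none of the 3 was called. The CYBB log2 fold change was 0.00492 with DESeq2 size factors, 0.0036 with DESeq2, 0.053 without GC and length trends and 0.014 over 12 libraries, and -0.015 to 0.017 with a library left out. The CXCL16 log2 fold change ranged from -0.50 to 0.023 and the FOS log2 fold change from -0.076 to 0.020 with a library left out. Without GC and length trends MPO became called (MPO log2 fold change -0.17), and RELA (RELA log2 fold change 0.092) and ESPL1 (ESPL1 log2 fold change 0.094) lost their calls. CCL23 became called with DESeq2 size factors (CCL23 log2 fold change 0.37) and without TNF-α replicate 1 (0.48) or vehicle replicate 1 (0.45). With the minimum fold change, 31 of 165 named genes lost their calls. The causes were not tested.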
